A study of Mus musculus with 6 samples.

Results

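The enamel proteases Klk4 and Mmp20 and the alkaline phosphatase Alpl were followed across 6 bead arrays of mouse incisor tissue. The genes were chosen by name, as the probes that the array annotation assigns to Klk4, Mmp20 or Alpl (older symbol Akp2). Each had 1 probe, so they made up 3 of 23978 named probes and 3 of 16593 named genes. All 3 probes were detected on all 6 arrays, with a detection p-value, which sets a probe against the array's negative-control beads, under 0.01.

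The tissue came from lower incisors of C57BL/6 mice at 4 wk, taken between the bone and the dentin. KO mice carried 2 floxed Med1 alleles (exons 8 to 10) and a Cre transgene driven by the Krt14 promoter, so that Med1, a subunit of the Mediator coactivator, was deleted in Krt14-expressing epithelium. CON mice were littermates with the same floxed alleles and no Cre. Tissue was taken at the cervical loop (CL), where the epithelial stem cells lie, at the secretory stage (Sec) and at the maturation stage (Mat). The authors describe the CL sample as also holding inner dental epithelium, with its transient amplifying cells, and the start of the secretory zone. For each array RNA came from a pool of 3 mice, with a single array per genotype at a given stage.

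Enamel is laid down as a protein matrix by ameloblasts and is then hardened as the protein is cut up, removed and replaced by mineral. Mmp20 (enamelysin) is a matrix metalloproteinase known from the secretory stage, where it cleaves amelogenin, ameloblastin and enamelin as they are secreted. Klk4 (kallikrein-related peptidase 4) is a serine protease known from the transition and maturation stages, where it degrades the remaining matrix. Alpl, the tissue-nonspecific alkaline phosphatase, is a GPI-anchored enzyme that hydrolyses pyrophosphate, an inhibitor of mineral growth, and releases phosphate. In teeth it is known from the stratum intermedium and the papillary layer beside the ameloblasts, and from odontoblasts and bone cells. In whole tissue, fewer cells of a type and less RNA per cell cannot be told apart.

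The 250 bases before the RefSeq start of each gene are shown because the 3 genes differ in them. All 3 genes matched the RefSeq table of GRCm38.p6, Alpl with 2 starts and so with 2 windows. Each is written 5′ to 3′ on the strand of the gene, and capitals mark matches to the motifs named after them.
Klk4, chr7:43880910-43881159, plus strand: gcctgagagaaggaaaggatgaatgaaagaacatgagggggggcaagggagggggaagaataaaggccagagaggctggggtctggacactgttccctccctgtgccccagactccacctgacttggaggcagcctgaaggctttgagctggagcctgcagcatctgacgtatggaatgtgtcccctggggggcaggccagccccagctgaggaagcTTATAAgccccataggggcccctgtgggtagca
Mmp20, chr9:7627981-7628230, plus strand: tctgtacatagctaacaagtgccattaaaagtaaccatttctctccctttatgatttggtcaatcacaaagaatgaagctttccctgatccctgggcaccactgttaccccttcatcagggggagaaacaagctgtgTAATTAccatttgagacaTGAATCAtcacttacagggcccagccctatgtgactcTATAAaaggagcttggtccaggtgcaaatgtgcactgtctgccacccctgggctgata
Alpl, upstream start, chr4:137796385-137796634, minus strand: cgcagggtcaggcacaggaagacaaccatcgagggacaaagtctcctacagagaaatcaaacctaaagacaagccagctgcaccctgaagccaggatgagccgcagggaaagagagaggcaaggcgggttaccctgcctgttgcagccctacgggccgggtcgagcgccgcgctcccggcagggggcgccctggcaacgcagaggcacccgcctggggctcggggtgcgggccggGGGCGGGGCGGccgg
Alpl, downstream start, chr4:137766476-137766725, minus strand: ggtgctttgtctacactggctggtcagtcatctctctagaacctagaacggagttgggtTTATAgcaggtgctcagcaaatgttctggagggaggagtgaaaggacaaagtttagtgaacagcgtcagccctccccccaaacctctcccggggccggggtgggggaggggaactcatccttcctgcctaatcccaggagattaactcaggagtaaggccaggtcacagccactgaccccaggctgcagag
The letters TATAA, the core of the TATA box, lay 32 bases before the Klk4 start, overlapping a match on the other strand at 33, and 58 bases before the Mmp20 start. They were in 22.8% of 32851 mouse windows of this length. The Mmp20 window also held TAATTA, the core of many homeodomain sites, 113 bases before the start, and TGANTCA, a loose form of the AP-1 motif that this stretch matches only because N stands for any base, 95 bases before it. These were in 4.84% and 6.75% of all windows. The upstream Alpl window held 2 overlapping copies of GGGCGG, the GC box, 15 and 10 bases before the start (32.7% of all windows) and no TATAA, and its GC content was 68.4%, against 59.6% for Klk4 and 45.6% for Mmp20. The downstream Alpl window, with a GC content of 56%, held TATAA on the other strand only, 191 bases before the start. TGTGGT, a RUNX motif, and GTAAACA, a FOXO motif, were searched on both strands as well and stood in none of the 4 windows (14% and 3.17% of all windows). The motifs were chosen after the sequences had been seen, and a match of letters is a description and not a binding site.

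At the Mat stage all 3 genes were lower in KO than in CON. On the log2 scale after normalization the difference (KO minus CON) was -1.37 for Alpl, -0.93 for Klk4 and -0.71 for Mmp20. At the earlier stages the 3 genes parted. Mmp20 exceeded CON at CL (0.81) and at Sec (0.74), Alpl was within 1.5-fold at CL and lower at Sec (-0.71), and Klk4 was lower at CL (-0.66) and within 1.5-fold at Sec (-0.38). These are differences between 2 arrays. Calls of higher or lower needed a 1.5-fold difference and a detected probe on the brighter of the 2 arrays, and with 1 pool per genotype and stage there is no test at a single stage.

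**Figure D1:**
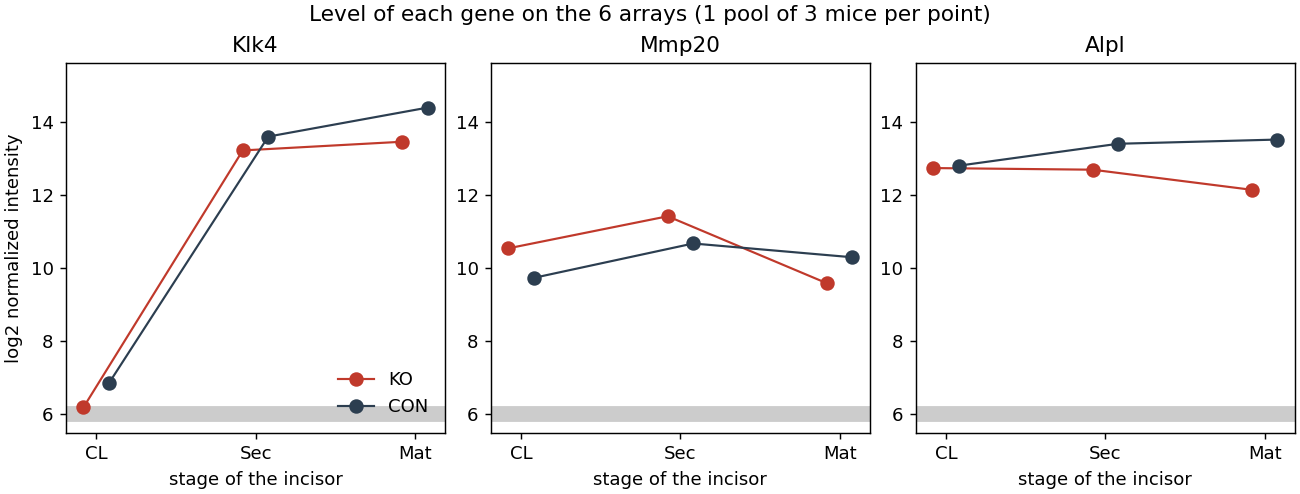
Log2 normalized intensity of Klk4, Mmp20 and Alpl (vertical axis) at CL, Sec and Mat (horizontal axis), with KO drawn left of CON. Each point is 1 array of 3 pooled mice, and the grey band spans the lowest detected level of the 6 arrays (5.83 to 6.19). Klk4 climbs from near the band at CL to above 13 at Sec in both genotypes, and at Mat the KO point is below the CON point for all 3 genes.

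Klk4 was close to the limit of detection at CL and far above it afterwards. Its intensity before normalization was 212.7 at CL, 9865.3 at Sec and 11333.6 at Mat in KO, against 239.1, 12133.2 and 20931.3 in CON. The KO array was the dimmer one at each stage, and the widest gap in intensity was at Mat. After normalization the log2 level was 6.19, 13.21 and 13.45 in KO, against 6.86, 13.59 and 14.38 in CON. The fold at Mat was 1.91 lower in KO, and 681 of the 9218 genes considered at that stage had a difference lower still. At CL the fold was 1.58 lower in KO, and 113 of 8794 genes had a difference lower still. That value rests on dim signals. The detection p-value in KO was 0.00376 and the lowest detected level of the array was 6.02, and the difference shrank to -0.28 with the deposited normalized values and to -0.48 with an offset of 50, both within 1.5-fold.

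Mmp20 crossed over between Sec and Mat. Its intensity was 1801.0 at CL, 2984.5 at Sec and 889.8 at Mat in KO, against 992.7, 1633.0 and 1290.8 in CON. KO was the brighter array at CL and Sec and the dimmer one at Mat. The log2 level was 10.54, 11.41 and 9.58 in KO, against 9.73, 10.67 and 10.29 in CON. At CL the fold was 1.75 higher in KO, and 57 of 8794 genes had a larger difference. At Sec the fold was 1.67 higher, which 819 of 9073 genes exceeded, and at Mat it was 1.64 lower, with 1264 of 9218 genes lower still.

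Alpl moved apart between the genotypes with each stage. Its intensity was 7564.1 at CL, 6969.5 at Sec and 4473.7 at Mat in KO, against 7065.0, 10321.2 and 11458.9 in CON. The arrays were alike at CL, and KO was lower at Sec and at Mat. The log2 level was 12.73, 12.69 and 12.14 in KO, against 12.80, 13.40 and 13.51 in CON. The fold was 1.05 at CL, 1.63 lower in KO at Sec and 2.59 lower in KO at Mat, where 241 of 9218 genes were lower still.

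The number of genes that differed was much greater at Sec and Mat than at CL. At Mat 3 of the 3 genes were lower, where 18.4% of the 9218 genes considered were lower and 12.6% higher. At Sec 1 was higher and 1 lower, where 11.7% of 9073 genes were higher and 15.2% lower. At CL 1 was higher (Mmp20) and 1 lower (Klk4), where 1.81% of 8794 genes were higher and 2% lower. The median difference over all genes considered was -0.02 at CL, -0.10 at Sec and -0.14 at Mat. Gapdh, a glycolytic enzyme often used as a reference, had a log2 difference of -0.52 at Mat. Set against Gapdh, a comparison chosen after the data were seen, the differences at Mat were -0.85 for Alpl, -0.41 for Klk4 and -0.19 for Mmp20, so that Alpl alone passed the fold of 1.5. Set against this Gapdh probe, the brighter one, at CL and Sec, the calls for the 3 genes did not change. The other Gapdh probe had a log2 level of 13.20 in KO and 13.42 in CON at Sec. Against it the Alpl call at Sec would not hold.

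**Figure D2:**
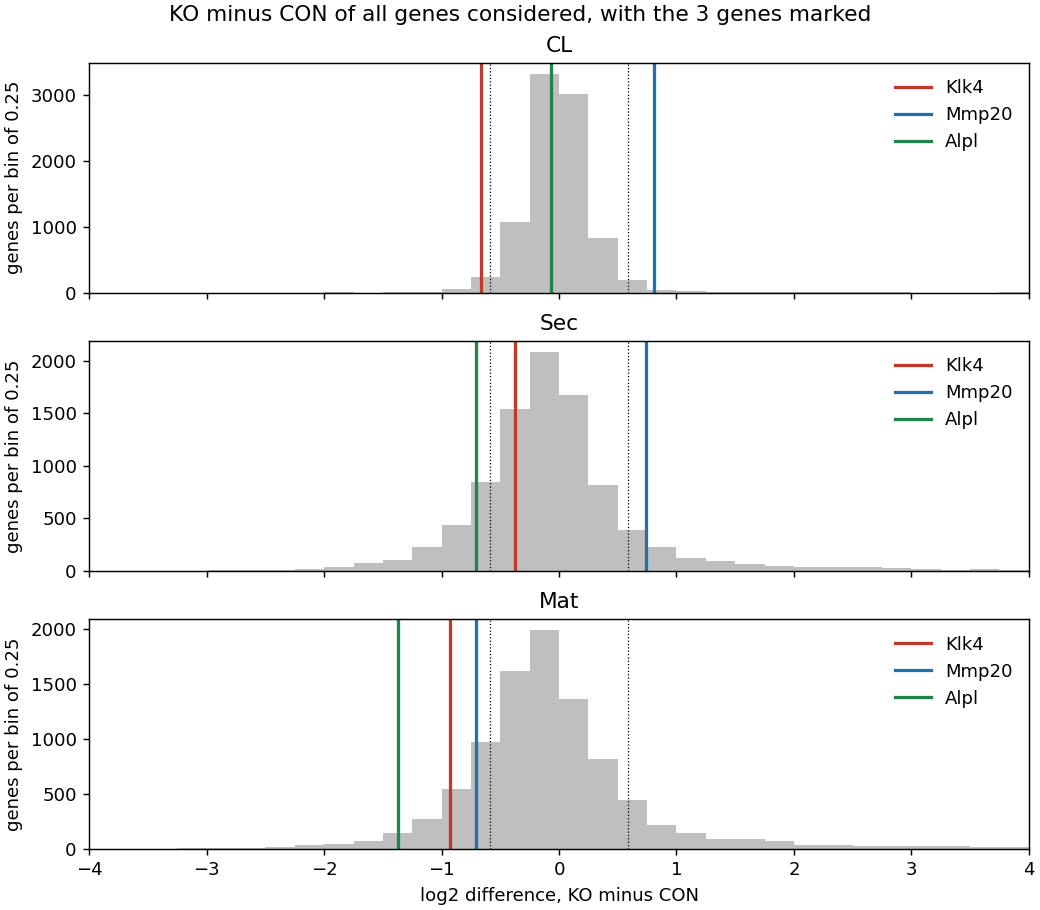
Number of genes (vertical axis, bins of 0.25) by log2 difference, KO minus CON (horizontal axis, shown from -4 to 4), at CL, Sec and Mat, with coloured lines at Klk4, Mmp20 and Alpl and dotted lines at a fold of 1.5. At CL the Mmp20 line (0.81) and the Klk4 line (-0.66) lie in the tails of a narrow distribution, and at Mat all 3 lines lie left of the dotted line.

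Between stages, Klk4 had the largest step from CL to Sec among the genes considered in CON, but not in KO. In CON its level was 6.74 log2 units higher at Sec than at CL, a fold of 107, and no other of 8757 genes had a larger step. Next were Slc24a4, a calcium exchanger of maturing ameloblasts, at 4.78 or more (not detected at CL), and Akr1c18 and Gpx2, which were named after their values had been seen. In KO the step was 7.02, a fold of 129.7, and 8 of 9249 genes had a larger one. These were the hair keratins and hair-associated genes Krt71, Krt34, Krt33a, Krt86, S100a3, Prr9 and Krtap19-9b, not detected in KO at CL, and the gap junction gene Gjb2. The size of both steps depended on the background correction, since Klk4 at CL lay near the lowest detected level. With the deposited normalized values, which are not background-corrected, the step was 5.59 in KO and 5.68 in CON, folds of 48.1 and 51.4, so that the order of KO and CON turned. From Sec to Mat the Klk4 level was higher by 0.24 in KO and by 0.79 in CON. Steps of one genotype share arrays with one another, so they are given side by side and not as separate support.

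Mmp20 had nearly the same step from CL to Sec in both genotypes, 0.88 in KO and 0.94 in CON. At Mat its level was below that at Sec by 1.83 log2 units in KO, a fold of 3.56, and by 0.38 in CON. In KO 10 of 9143 genes had a larger fall, among them the glycosyl- and sulfotransferases Galnt12, Gal3st4 and St3gal4 and the ligand Wnt10a. Set against CL, the Mat level was 0.96 lower in KO and 0.56 higher in CON, the latter within 1.5-fold.

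Alpl had steps of opposite sign in the 2 genotypes, but several of them were small. The KO step from CL to Sec and both steps from Sec to Mat were within 1.5-fold. From CL to Sec the step was -0.045 in KO and 0.60 in CON, from Sec to Mat it was -0.55 in KO and 0.12 in CON, and over the whole length it was -0.59 in KO (-0.58 and within 1.5-fold with the deposited values) and 0.71 in CON. From CL to Sec 2 of the 3 genes were higher in KO and 3 of 3 in CON, where 14.5% of all genes considered were higher and 19.3% lower in KO, and 6.58% higher and 5.58% lower in CON. From Sec to Mat 1 of the 3 was lower in KO (Mmp20, where 7.22% of all genes were lower and 7.54% higher) and 1 was higher in CON (Klk4, where 13.3% were higher and 13.1% lower). From CL to Mat 1 was higher (15.8% of all genes) and 2 lower (24.6%) in KO, and 2 were higher in CON, where 17.1% of genes were higher and 20.6% lower. In CON at Mat the level of Gapdh was itself 0.61 above that at CL, and the Alpl step of 0.60 from CL to Sec lay just past the fold of 1.5.

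The only test used all 6 arrays in limma, with genotype and stage as terms, over 8697 genes detected on at least 3 arrays and with Benjamini-Hochberg adjustment. It had 2 residual degrees of freedom, and its p-values measure how alike the stages or genotypes are, not how alike animals are. Klk4 was the single gene called for stage. Over both genotypes it was 6.88 ± 0.22 (SE) higher at Sec than at CL (95% interval 6.30 to 7.46, limma adjusted p = 0.00752) and 7.39 higher at Mat than at CL (6.81 to 7.97, limma adjusted p = 0.00529), and 0.0115% of genes were called in each contrast. At an unadjusted p under 0.05, 482 genes were higher and 530 lower at Sec than at CL, and for Mat against CL the counts were 1044 and 1695. The call at Mat was lost without the KO CL array (limma adjusted p = 0.0667), and the call at Sec was lost without the KO CL array (0.0932), without the KO Sec array (0.106) or without the CON Sec array (0.145), while with any 1 array left out the estimate stayed between 6.67 and 7.09 at Sec and between 7.19 and 7.60 at Mat. With the deposited normalized values the estimates were smaller, 5.64 at Sec (limma adjusted p = 0.00846) and 6.15 at Mat (limma adjusted p = 0.00544). The difference of Mat from Sec was not called for Klk4 (0.51, -0.06 to 1.09, limma adjusted p = 0.682), or for Mmp20 (-1.10, -2.22 to 0.01, limma adjusted p = 0.681).

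For genotype, 0% of genes were called by the same fit, while 338 genes in the upward and 519 in the downward direction had an unadjusted p under 0.05. Klk4 was lower in KO by an estimate of -0.66 ± 0.18 (SE, 95% interval -1.13 to -0.19, limma adjusted p = 0.496, range over the alternatives 0.355 to 0.973), with KO below CON at 3 of 3 stages. Alpl had an estimate of -0.72 (-1.45 to 0.02, limma adjusted p = 0.502, range 0.216 to 0.931), also below CON at 3 of 3 stages. Mmp20 had an estimate of 0.28 (-0.63 to 1.19, limma adjusted p = 0.767, range 0.715 to 0.994) and was above CON at 2 of 3 stages. The Mmp20 estimate was 0.02 without either CL array and 0.78 without either Mat array. Without 1 or both of the CL arrays the fit called 80 to 97 genes higher, and none of the 3 genes was among the genes called.

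**Figure D3:**
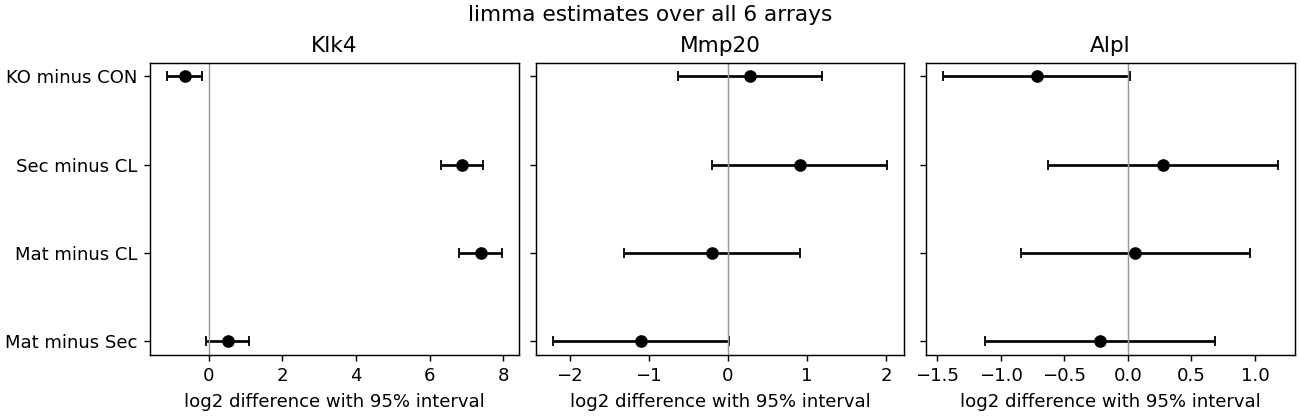
limma estimates with 95% intervals (horizontal axis, log2 difference, with a scale of its own for each gene) for KO minus CON, Sec minus CL, Mat minus CL and Mat minus Sec, over all 6 arrays. The Klk4 stage estimates of 6.88 and 7.39 lie far from 0, and the intervals of Mmp20 and Alpl reach 0 in every contrast.

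Of the 3 substrates of the proteases, 1 was past the fold of 1.5 between genotypes, at CL and Sec, and none at Mat. Over all genes considered 1.81% were higher and 2% lower at CL, and 11.7% and 15.2% at Sec. Amelx (amelogenin) and Ambn (ameloblastin), which make up the bulk of the matrix, were within 1.5-fold between genotypes at all 3 stages, with differences between -0.16 and 0.19. Their levels, 14.78 to 15.32, were at or near the top of the scale (15.32). Enam (enamelin) had a log2 level of 12.95, 14.18 and 12.91 in KO at CL, Sec and Mat, against 12.01, 13.13 and 13.27 in CON. Like Mmp20, it exceeded CON at CL (0.94) and Sec (1.05) and was below CON at Mat (-0.35, within 1.5-fold). Ctsc (cathepsin C), which can activate Klk4, was within 1.5-fold at each stage (0.07, 0.30 and -0.16).

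Among other proteins of the maturation stage, 4 of the 7 listed genes had a probe and 3 were detected. Slc24a4 had a log2 level of 10.83 at Sec and 10.74 at Mat in KO, against 10.97 and 12.38 in CON, and was not detected at CL in either genotype. Its difference at Mat was -1.64. Fam20a, a pseudokinase needed for enamel formation, had 11.65, 12.50 and 11.07 in KO, against 11.36, 11.97 and 12.16 in CON. It was lower in KO at Mat (-1.09). Fam83h, a gene of hypocalcified enamel, was higher in KO at Sec (1.03) and Mat (1.06). Wdr72 was not detected, and Amtn, Odam and Acp4 had no probe.

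Of the tissue inhibitors of metalloproteinases, Timp1 was lower in KO at Sec (-0.79) and Mat (-1.57). Its log2 level at Mat was 10.70 in KO and 12.28 in CON. Timp2 and Timp3 were within 1.5-fold at all stages, and Timp4 was not detected. The other matrix metalloproteinases, which cut collagen and other connective tissue proteins, were lower in KO or within 1.5-fold, except for 1 gene at Mat. Of the listed genes, none of 9 detected at CL passed the fold of 1.5. At Sec 5 of 9 were lower and none higher (median -0.78, against -0.10 over all genes). At Mat 6 of 13 were lower, 1 higher and 6 neither. Of these 13, 4 were detected on a single Mat array and are bounds, and the 9 measured on both had a median of -0.87. The list did not hold Mmp1a, so these counts and medians leave it out. Mmp1a was detected on all arrays and was within 1.5-fold at CL (0.02), Sec (0.03) and Mat (-0.25). Over all genes considered 11.7% were higher and 15.2% lower at Sec, and 12.6% and 18.4% at Mat. Mmp13, a collagenase of bone, had differences of -1.48 at Sec and -1.32 at Mat, and Mmp9, a gelatinase of osteoclasts and leukocytes, had -0.86 and -1.34. The gene higher at Mat was Mmp3 (stromelysin 1), detected in KO alone, by at least 1.17 log2 units. At Sec Mmp20 was higher in KO, and no other detected matrix metalloproteinase was.

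The partners of Alpl in mineral formation moved in both directions. Of 11 listed genes 9 had a probe, and at Mat 8 were detected, of which 2 were higher and 3 lower in KO (median -0.43, with Phospho1 at its bound). At Sec 1 was higher and 4 lower of 7 (median -0.60), and at CL none of 7 passed the fold of 1.5. Over all genes considered 12.6% were higher and 18.4% lower at Mat, and 11.7% and 15.2% at Sec. The phosphate transporter Slc20a1 had a log2 level of 5.99 in KO and 7.50 in CON at Mat, a difference of -1.51. That KO level lay near the lowest detected level of the array (5.83). Slc20a2 was also called lower in KO at Mat (-0.65). Phospho1, a phosphatase of matrix vesicles, was detected on the CON Mat array alone (6.84), at least 1.01 log2 units above KO. Ank, a pyrophosphate transporter, was within 1.5-fold (-0.49 at Sec and -0.52 at Mat). Smpd3, a sphingomyelinase of bone and cartilage, was lower in KO at Sec (-2.12) and higher at Mat (1.07). Nt5e (CD73), which makes adenosine, was higher in KO at Sec (1.36) and Mat (0.88). The annexins Anxa5 and Anxa6 of matrix vesicles were lower at Sec (-0.79 and -0.87). Of the other alkaline phosphatases, Akp3 and Alppl2 were not detected on any array and Alpi had no probe.

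**Figure D4:**
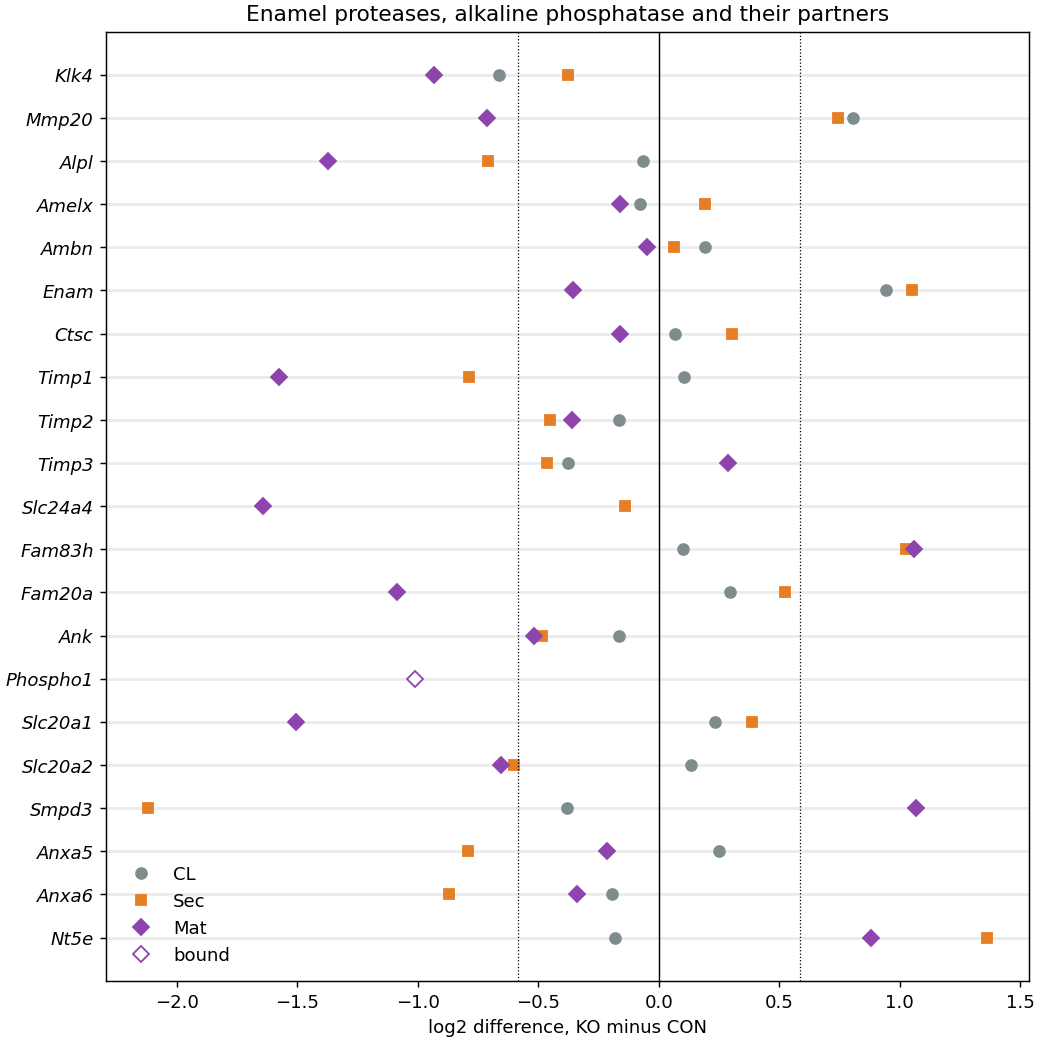
Log2 difference, KO minus CON (horizontal axis), at CL (circles), Sec (squares) and Mat (diamonds) for the 3 genes, the enamel matrix genes, Ctsc, the Timp genes, maturation genes and the mineral partners of Alpl (rows), with dotted lines at a fold of 1.5. The open diamond is a bound for Phospho1, not detected in KO. Alpl (-1.37), Timp1 (-1.57), Slc24a4 (-1.64) and Slc20a1 (-1.51) have the lowest diamonds, and Mmp20 and Enam have squares and circles on the right. The Slc20a1 diamond rests on a dim KO signal.

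Klk4 lies among other kallikrein genes on chromosome 7. In the RefSeq order its neighbours are Klk5 on one side and Klk15 on the other, and Klk6 to Klk10 follow beyond Klk5. Several of these are known from the epidermis, where they take part in shedding of the outer layer. Klk5 was detected in KO alone, with a log2 level of 8.59 at Sec and 9.50 at Mat, at least 2.45 and 3.30 above CON. Klk7 was detected in KO alone as well, with 12.37 at Sec and 12.81 at Mat, at least 6.24 and 6.62 above CON. Of the 6 other listed kallikreins detected at Sec 4 were detected in KO alone, as were 6 of 7 at Mat, so that their direction follows from detection and their number is not set against Klk4. Those measured in both genotypes were Klk8 and Klk10 at Sec (1.13 and 3.12 higher in KO) and Klk8 at Mat (1.82). Klk15, which the list did not hold, was detected in KO at Mat alone and was at least 0.37 above CON, within 1.5-fold. Mmp20 lies on chromosome 9 between Mmp27, which had no probe, and Mmp7, which was not detected. Alpl lies on chromosome 4 between Rap1gap, detected on a single array, and Ece1, an endothelin-converting enzyme. Ece1 had differences of -0.16, -0.88 and -1.22 at CL, Sec and Mat, beside -0.07, -0.71 and -1.37 for Alpl. Nearby Hspg2, Hp1bp3 and Ddost, also detected on all arrays, were within 1.5-fold at each stage (0.13, 0.23 and 0.006 at Mat).

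**Figure D5:**
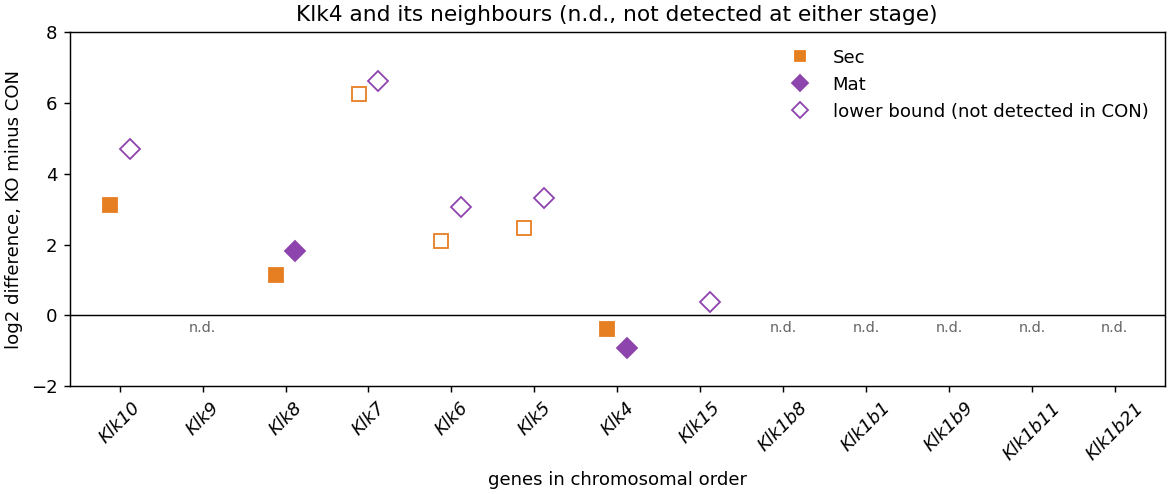
Log2 difference, KO minus CON (vertical axis), at Sec (squares) and Mat (diamonds) for Klk4 and the 6 genes on each side of it on chromosome 7, in chromosomal order. Open symbols are lower bounds for genes not detected in CON, and n.d. marks genes detected at neither stage. Klk4 (-0.38 and -0.93) is the single gene drawn below 0. Of the genes drawn above 0, Klk8 alone was measured in both genotypes at both stages. The direction of the open symbols follows from detection, so they are not set against Klk4.

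The genes whose levels most resembled each of the 3 were sought among 2665 genes detected on all arrays with a range of at least 1 log2 unit. The likeness is Pearson's r over 6 arrays, which share stages and genotypes, and is a description. Atp6v0a1, a subunit of the vacuolar proton pump, was the most like Klk4 (r = 0.986), followed by Tns4, Cox7a1, H2-Q7 and Spsb4 (0.979 to 0.976). Npc2, a cholesterol-binding lysosomal protein, was the most like Mmp20 (0.991), followed by Gal3st4, St3gal4, Stx18 and Aph1b (0.975 to 0.938). Its log2 level was 10.92, 11.57 and 10.44 at CL, Sec and Mat in KO, against 10.45, 10.99 and 10.86 in CON. Ctnnd2, a catenin, was the most like Alpl (0.984), followed by Slc7a6, Phykpl, Tcaim and Gng11 (0.974 to 0.968). Among the 3 genes themselves r was 0.22 for Klk4 and Mmp20, 0.24 for Klk4 and Alpl and 0.31 for Mmp20 and Alpl.

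Marker genes of other cell types differed in level between the pools. For comparison with the counts below, 1.81% of all genes considered were higher and 2% lower in KO at CL. The shares were 11.7% and 15.2% at Sec, and 12.6% and 18.4% at Mat. Of 11 endothelial markers on the array 10 were detected on every array (Kdr on none), and 4 were lower in KO at Sec and 9 at Mat. Their summed intensity was 12857, 9761 and 11259 at CL, Sec and Mat in KO, against 13715, 15778 and 20927 in CON. The odontoblast and bone markers had 7 of 11 detected in KO and 7 or 8 in CON, with summed intensities of 111581, 105164 and 84715 in KO, against 105901, 116144 and 95342 in CON. Bglap, Bglap2 and Col1a1 made up most of these sums, at log2 levels (14.37 to 15.17) near the top of the scale. In KO 2 of 7 bone markers were lower at Sec (Ibsp -1.05 and Sp7 -0.62). At Mat 2 of 8 were lower (Ibsp -1.33 and Mepe, a bound, -1.64), and none was higher at either stage. Dspp, Dmp1 and Sost, which define odontoblasts and osteocytes, were detected on no array. The 4 epithelial markers were all detected, with 32475, 47923 and 49116 in KO, against 31222, 38567 and 56125 in CON. Of 11 hair and epidermal markers the KO arrays of Sec and Mat detected 10, with sums of 155633 and 201842, while 4 were detected in CON, with sums of 2435 and 3861. At CL the sums were 4429 in KO and 2724 in CON, with 4 detected in each. The 7 neutrophil markers, 6 or 7 of them detected, summed to 25217, 15401 and 10479 in KO, against 17011, 4846 and 6996 in CON. Of these markers 5 of 7 were higher in KO at CL and 6 of 7 at Sec. At Mat 1 of 6 was higher in KO, S100a8 (0.87), which the epidermis can also express, and the median was 0.071. The 9 skeletal muscle markers, 7 to 9 of them detected, summed to 4172, 34284 and 50209 in KO, against 3793, 5507 and 31096 in CON. At Sec 8 of 9 were higher in KO, and at Mat 4 were higher, 4 neither and 1, Mb (myoglobin), lower (-2.49). The part of these cell types in the levels of Klk4, Mmp20 and Alpl was not tested. Med1, the deleted gene, had differences of -0.54, -0.63 and -0.49 at CL, Sec and Mat by its brightest probe. A dimmer probe had log2 levels of 7.09, 6.65 and 6.96 in KO, against 7.29, 7.43 and 7.46 in CON. The remaining Med1 probes were near the limit of detection or detected on no array. The sources used here do not place the probes relative to the deleted exons.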

How the data were processed

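RNA was hybridized to 6 Illumina mouse bead arrays, each with RNA pooled from 3 mice. The sources used here do not say whether the stages of a genotype came from the same mice. The limma fit treated the arrays as independent. The authors extracted the signal with GenomeStudio (version not given in the sources used here) and deposited, for 25697 probes, the intensity on the linear scale without normalization, with a detection p-value. A second deposited table holds normalized intensity values, used as an alternative. The non-normalized table was processed with neqc of limma 3.58.1 in R 4.3.3: background from the detection p-values, quantile normalization and log2 with an offset of 16, so that folds of dim probes are understated. Genes took their brightest probe, and 1719 probes without a symbol were left out. Detection meant a p-value under 0.01. It held for 46.1% to 49.8% of probes, and the number of arrays limits the precision. A gene detected on one side took the lowest detected level of the other array (5.83 to 6.19), which makes its difference a bound. Calls needed a fold of at least 1.5, the fold of the methods. limma used an adjusted p under 0.05. The procedure was run on simulated data with the same noise for all probes. That check covered the mean estimates and the fold calls at Mat, and set no condition on the genes limma called. The files give no chip or scan batch. The members, gene lists and tests were chosen with earlier results of these data known. Named genes were the 3 members, the 5 genes most like each, Med1, Gapdh and genes of the lists, and any gene outside this rule, such as those with larger steps between stages or adjacent genes, was named after its values were seen. The alternatives changed the background correction, normalization, offset, probe choice, filter, terms, fold, detection p-value and arrays included.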

Additional observations from a re-analysis of the deposited data

Results flagged for a closer look

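Some differences had opposite signs in KO and CON, or at different stages, each on single arrays, and the difference between them was not tested. Mmp20 at Mat set against CL was -0.96 in KO and 0.56 (within 1.5-fold) in CON. The Mmp20 difference, KO minus CON, was 0.81 at CL and 0.74 at Sec, but -0.71 at Mat. Alpl set against CL was -0.045 (within 1.5-fold) in KO and 0.60 in CON at Sec, and -0.59 in KO and 0.71 in CON at Mat. Alpl at Mat set against Sec was -0.55 in KO and 0.12 in CON, both within 1.5-fold.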

How the results depend on the processing

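No difference between KO and CON and no step within a genotype of Klk4, Mmp20 or Alpl changed sign under any alternative run. Leaving aside the mean of the probes, which cannot move genes with 1 probe, 39 of 45 alternative values of the differences between KO and CON kept their call, as did 69 of 72 for the steps between stages. Of the limma estimates 153 of 165 kept sign and call. Klk4 at CL was within 1.5-fold with the deposited normalized values (-0.28), with a common median and no background correction (-0.28) and with an offset of 50 (-0.48). Mmp20 at Mat was -0.58 with a common median and no background correction, and relative to Gapdh Klk4 and Mmp20 at Mat were -0.41 and -0.19. The Alpl step from CL to Mat in KO was -0.58 with the deposited values, its step from CL to Sec in CON was 0.58 with a common median and no background correction, and its step from Sec to Mat in KO passed the fold (-0.60) with neqc and a common median. The cause of these changes was not tested. The counts of genes depended on the threshold. With the deposited values 47 genes were higher and 35 lower in KO at CL (159 and 176 in the main setting), 739 were higher and 723 lower at Sec (1059 and 1378), and 857 were higher and 927 lower at Mat (1163 and 1694), so that at Sec the balance turned to slightly more genes higher. With a fold of 2, the CL counts were 31 higher and 15 lower, those of Sec 580 higher and 474 lower, and those of Mat 679 higher and 586 lower. With detection at a p-value under 0.05, 316 were lower at CL. In limma, Klk4 at Sec against CL (6.88) was not called without a filter on dim probes (adjusted p = 0.0556) or without genotype in the fit (adjusted p = 0.0546), and 0 genes were then called. With genes detected on all 6 arrays, 64 were higher and 32 lower at Mat than at CL. Leaving out 1 array, or both of a stage for genotype, the fit called 0 to 97 genes higher and 0 to 1 lower for genotype, 0 to 18 higher for Sec against CL, and 0 to 385 higher and 0 to 360 lower for Mat against CL. Klk4 was then 6.67 to 7.09 at Sec and 7.19 to 7.60 at Mat against CL. The stage estimates of Mmp20 and Alpl, none of them called, changed sign with 1 array left out. For Mat against CL, Mmp20 ranged between -0.94 (without the CON Mat array) and 0.55 (without the KO Mat array), and was 0.20 without the KO CL array, while Alpl ranged between -0.43 (without the CON CL or the CON Mat array) and 0.55. Alpl ranged between -0.21 (without the CON CL array) and 0.76 for Sec against CL, and between -0.71 and 0.28 (without the KO Mat array) for Mat against Sec. Where a stage kept 1 array, it was assumed to vary like the others. KO and CON mice could not be paired, because there was 1 array per genotype and stage and the labels give no replicate numbers. The genotype fit compared KO with CON within each stage, through its stage term. Signal over background limits Klk4 at CL, dim genes such as Slc20a1 in KO at Mat, and the genes given as bounds.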

Other observations

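Other genes of the cells that carry Alpl or make enamel were read from the same arrays. Of 18 detected genes for synthesis of the GPI anchor, which holds Alpl on the membrane, 13 were within 1.5-fold at Mat, 2 were higher in KO and 3 lower (median -0.28, against -0.14 over all genes), a share near that of all genes at Mat (12.6% higher and 18.4% lower). Pgap2, which remodels the anchor lipid, was higher at Sec (1.32) and Mat (1.70), and Pigk, the catalytic subunit of the transamidase that attaches the anchor, was lower at Mat (-0.84). Of 6 detected genes of the Notch pathway, known from the stratum intermedium, 2 were higher and 1 lower at Sec (11.7% and 15.2% of all genes), and 1 was higher at Mat. Notch1 had a log2 level of 11.09 and 10.82 at Sec and Mat in KO, against 9.65 and 10.11 in CON. Hey1, a Notch target, had 12.43 in KO and 13.53 in CON at Sec, and was within 1.5-fold at CL and Mat. Hes1, also a Notch target, and Heyl were within 1.5-fold at all 3 stages. Of 7 detected transcription factors of dental epithelium none was higher and 3 were lower at Mat, where 12.6% of all genes were higher and 18.4% lower. These were Foxo1 (-1.10), Foxq1 (-1.09) and Runx1 (-0.79), and Runx1 was higher in KO at Sec (0.76). Dlx3, Msx2 and Sp6 were within 1.5-fold at all 3 stages.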
